A study of Mus musculus with 6 samples.

Results

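Genes of the disease-associated microglia (DAM) programme were followed in RNA-seq libraries of BV2 cells, an immortalised mouse microglial line, in which SMEK1 had been knocked down. The 10 genes are Trem2, Tyrobp, Lpl, Cst7, Itgax, Clec7a, Axl, Spp1, Cd9 and Csf1. They are a fixed list, matched by symbol to the deposited gene table, and all 10 were found among its 54532 genes. They were compared between 3 SMEK1 knockdown libraries and 3 libraries labelled WT. Values of single libraries are listed in the order A, B, C within each group. SMEK1 is a regulatory subunit of protein phosphatase 4, encoded by Ppp4r3a. All libraries come from BV2 cells grown in the same serum-containing medium with no labelled stimulus. The design text of the series speaks of both groups as knockdown derivatives, named LV1 and NL, so a control construct in the WT cells may be present, but the labels do not describe one. Nor do they say whether the libraries of a group are separate cultures, or whether the knockdown cells are 1 clone. P-values therefore measure the spread between these libraries, which may be technical, and the knockdown cannot be told apart from any other way in which the cultures differ.

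The DAM programme is the expression state that microglia take up around amyloid plaques, dying cells and damaged myelin in mice. In its usual description, homeostatic genes decline and a lipid-handling, lysosomal and phagocytic set of genes rises. TREM2, a surface receptor for lipids and lipoproteins, signals through its adaptor TYROBP (also called DAP12) to the kinase SYK, and the later step of the programme depends on it in mice. BV2 cells transcribe several of these genes in ordinary culture, as both groups did here.

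Totals ran between 18627425 and 21131557 counts per knockdown library and between 18036591 and 18708438 per WT library, and a single count was worth 0.0444 to 0.0597 CPM (counts scaled to library size). Ppp4r3a had 48, 122 and 94 counts in the knockdown libraries, against 335, 227 and 260 in the WT libraries, a log2 change of -1.94 (SE 0.24). Of 12 microglia and macrophage markers 9 passed the filter on low counts. The summed level of the list was 2173 to 2364 CPM in knockdown cells and 2649 to 2869 CPM in WT cells. Cd68, Spi1, Csf1r and Itgam of this list were called lower in the knockdown and Tmem119 higher. Sall1, a defining transcription factor of brain microglia, was at 0 in every library, and P2ry12 had 0 counts in the knockdown libraries and 2, 1 and 0 in WT. Astrocyte, fibroblast, endothelial and lymphocyte markers summed to at most 0.648 CPM in any library. Oligodendrocyte markers summed to 7.15 to 7.26 CPM in knockdown cells and 2.53 to 2.81 CPM in WT cells, and dendritic cell markers to 7.29 to 9.09 CPM in knockdown libraries and 3.30 to 4.95 CPM in WT libraries. Neuron markers summed to 0.800 to 1.81 CPM in knockdown cells and 0.418 to 0.765 CPM in WT cells. Mbp and Zbtb46 made up most of the oligodendrocyte and dendritic sums, while Mog, Olig1, Olig2 and Ccr7 were at 0. The part of these shifts in the results for the 10 genes was not tested.

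The 10 genes did not move as 1 group. Trem2, Lpl, Cst7, Clec7a and Cd9 were higher in the knockdown libraries, Tyrobp, Itgax and Axl were lower, and Spp1 and Csf1 were not called. The rises were moderate: 1.85-fold for Cst7, 1.74-fold for Cd9, 1.54-fold for Clec7a, 1.43-fold for Lpl and 1.29-fold for Trem2. Calls use edgeR's quasi-likelihood test at an adjusted p under 0.05, with the Benjamini-Hochberg method applied to all 12269 genes tested. Of these genes 20.5% were called higher and 19.6% lower, so 40.1% were called in 1 direction or the other. With library totals in place of TMM, 3893 genes were higher and 1568 lower, against 2515 and 2403, and of the 10 genes 5 were higher and 2 lower. In bulk libraries, fewer cells with a transcript and less of it per cell cannot be told apart. A mean of 15 CPM or more was reached by 9 of the 10 genes and by 6790 tested genes; 7 of the 9 were called, and 47.1% of the 6790. The libraries of the 2 groups did not overlap in CPM for 8 of the 10 genes, 4 with all knockdown libraries above WT and 4 with all below, whereas 50.9% of all tested genes did not overlap. The median log2 change over the 10 genes was 0.14, and over all tested genes 0.01. Axl passed the filter on low counts only through its WT libraries. Without WT C the genes called higher were 3, since Trem2 and Lpl then missed the threshold.

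**Figure D1:**
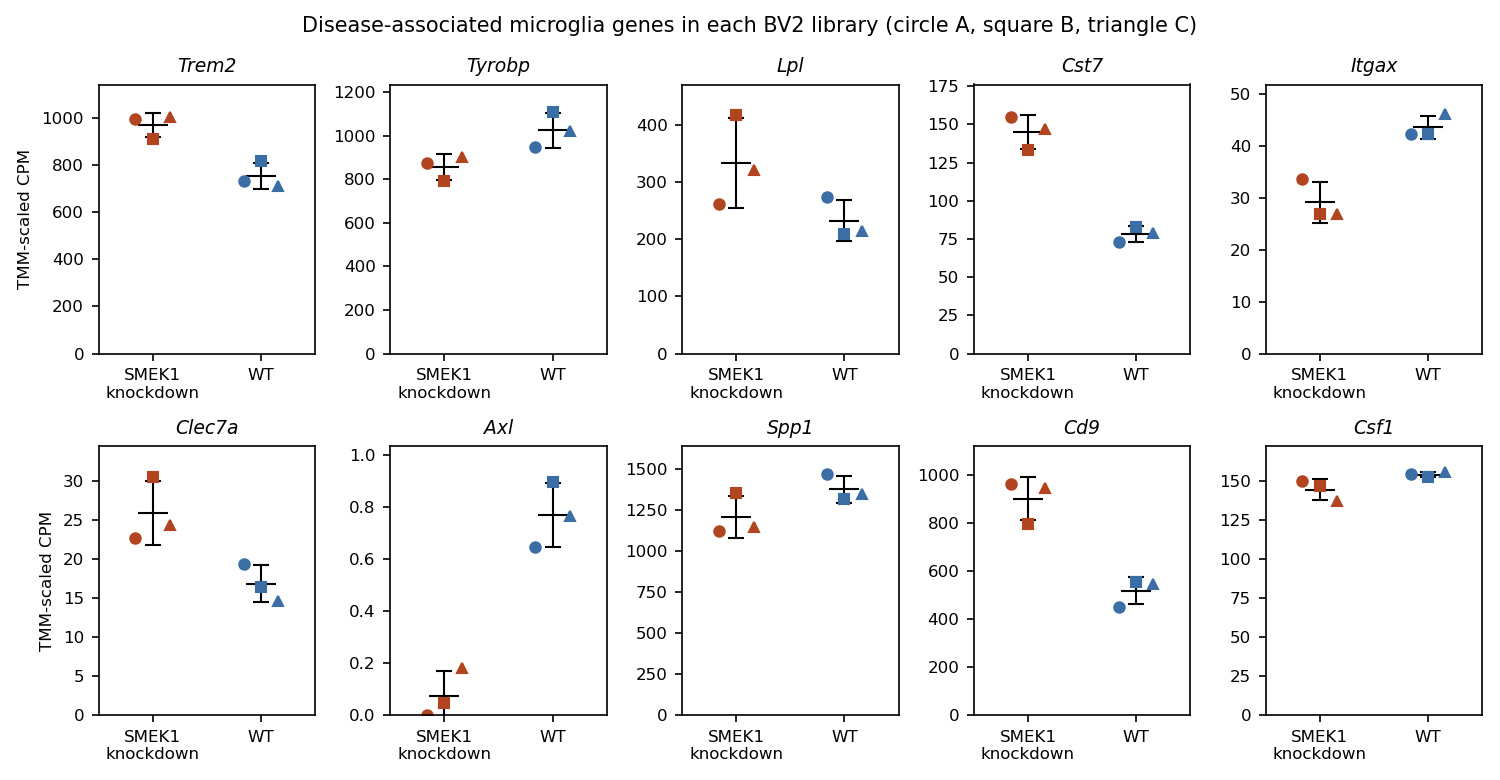
TMM-scaled CPM (y axis, linear, from 0) of each of the 10 genes in the 3 SMEK1 knockdown libraries (left) and the 3 WT libraries (right). Points are libraries and bars show the mean ± SD; the groups overlap only for Lpl and Spp1, and Axl stays under 1 CPM in every library.

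The sequences just around the start sites of the members that were called show which of them share short motifs. RefSeq promoter windows (build GRCm38.p6, 250 bases before to 50 after a start site) were found for 8 of the 10 genes, with 2 start sites each for Clec7a and Spp1. Tyrobp and Lpl are named only. The windows were searched on both strands for GAGGAA (a core of PU.1 sites), TGANTCA (AP-1), CACGTG (the E-box of MiT/TFE factors) and TGACCT (a nuclear receptor motif). No 2 of these motifs overlapped in a member's window. The windows of 4 genes with a rise and of Itgax, which fell, are given 5′ to 3′ with motif matches in capitals.
Trem2, chr17:48346151-48346450, plus strand: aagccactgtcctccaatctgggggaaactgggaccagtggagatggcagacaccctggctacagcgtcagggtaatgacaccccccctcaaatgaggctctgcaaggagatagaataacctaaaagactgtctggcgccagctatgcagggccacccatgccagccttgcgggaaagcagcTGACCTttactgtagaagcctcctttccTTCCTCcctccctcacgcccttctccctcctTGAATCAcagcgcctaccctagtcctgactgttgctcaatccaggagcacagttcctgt
Cst7, chr2:150570165-150570464, plus strand: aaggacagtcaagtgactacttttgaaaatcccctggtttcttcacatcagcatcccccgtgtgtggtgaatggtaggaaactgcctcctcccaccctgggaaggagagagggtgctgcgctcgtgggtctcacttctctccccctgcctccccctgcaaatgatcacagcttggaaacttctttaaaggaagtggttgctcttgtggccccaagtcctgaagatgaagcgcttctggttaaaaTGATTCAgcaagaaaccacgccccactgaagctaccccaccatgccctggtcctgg
Itgax, chr7:128129300-128129599, plus strand: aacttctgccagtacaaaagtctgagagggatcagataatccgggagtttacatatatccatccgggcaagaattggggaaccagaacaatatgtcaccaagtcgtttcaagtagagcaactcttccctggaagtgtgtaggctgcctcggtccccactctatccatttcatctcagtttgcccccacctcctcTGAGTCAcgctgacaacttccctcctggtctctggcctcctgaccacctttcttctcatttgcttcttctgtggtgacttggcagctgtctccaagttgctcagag
Clec7a, chr6:129472730-129473029, minus strand: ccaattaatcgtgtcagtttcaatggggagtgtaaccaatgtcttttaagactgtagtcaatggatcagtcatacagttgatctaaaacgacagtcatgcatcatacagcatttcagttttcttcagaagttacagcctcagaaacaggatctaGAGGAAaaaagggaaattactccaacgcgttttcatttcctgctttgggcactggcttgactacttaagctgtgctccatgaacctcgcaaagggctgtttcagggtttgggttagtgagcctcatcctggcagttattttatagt
Cd9, chr6:125494711-125495010, minus strand: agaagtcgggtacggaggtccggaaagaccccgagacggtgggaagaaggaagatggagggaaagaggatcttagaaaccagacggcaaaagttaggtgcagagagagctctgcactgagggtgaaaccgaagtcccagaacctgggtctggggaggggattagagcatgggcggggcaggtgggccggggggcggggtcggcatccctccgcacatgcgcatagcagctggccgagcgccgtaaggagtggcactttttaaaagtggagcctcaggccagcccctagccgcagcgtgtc

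The AP-1 letters stood in the windows of Trem2, Cst7 and Itgax, 3 of the 10 member windows, and in 7.81% of all 32851 windows. In Trem2 the match began 9 bases before the start site, in Cst7 6 bases and in Itgax 56 bases before it. The PU.1 core stood in 5 of the 10 windows, those of Trem2, Axl, both of Clec7a, which overlap each other, and 1 of Spp1, and in 28.3% of all windows. The nuclear receptor motif stood in the Trem2 window alone among the members and in 16.3% of all windows, while the E-box stood in 0 of 10 and in 7.15%. The Cd9 window held none of the 4 motifs. Matches are descriptions of letters, and the shared AP-1 letters stand in genes that moved in opposite directions.

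Trem2 was higher in the knockdown. It had 996, 910 and 1002 CPM in the knockdown libraries, against 731, 818 and 712 CPM in the WT libraries. Every knockdown library lay above every WT library. edgeR gave a log2 change of 0.36 ± 0.09 (SE) at an adjusted p of 0.00597. The call was lost, narrowly, without WT C (adjusted p = 0.0504). The gene lies on the plus strand of chromosome 17 from 48346401 to 48354147 in GRCm38 and shares its interval with no other listed gene.

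Tyrobp, the adaptor that carries the signalling motif for TREM2, moved the other way. It had 874, 792 and 905 CPM in the knockdown libraries, against 948, 1108 and 1023 CPM in the WT libraries. The groups did not overlap, but the gap between knockdown C and WT A was small. By edgeR the log2 change was -0.26 ± 0.09 (SE), at an adjusted p of 0.0381, and the call was lost without any 1 of knockdown A (adjusted p = 0.0553), knockdown B (0.125), knockdown C (0.0656), WT B (0.126) or WT C (0.112). It was also lost with library totals in place of TMM, where the log2 change was -0.10 (adjusted p = 0.193).

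The balance between receptor and adaptor transcripts can be read within each library, where scaling between libraries has no part. The ratio of Trem2 to Tyrobp counts was 1.14, 1.15 and 1.11 in knockdown A, B and C, against 0.771, 0.738 and 0.696 in WT A, B and C. Trem2 thus had more counts than Tyrobp in every knockdown library and fewer in every WT library, but counts are not corrected for length. In deposited FPKM Trem2 stayed below Tyrobp in every library. That ratio was 0.154, 0.155 and 0.149 in knockdown A, B and C, against 0.104, 0.0995 and 0.0939 in WT A, B and C. Taken from the deposited FPKM, the ratio was 1.54-fold higher in the knockdown, a difference of 0.62 in its mean log2 value (exact permutation test, two-sided p = 0.1, the smallest that 3 against 3 libraries allow). The difference stayed between 0.59 and 0.66 when any 1 library was left out.

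Clec7a encodes dectin-1, a C-type lectin that binds fungal beta-glucans and signals through SYK. It had 22.7, 30.6 and 24.4 CPM in knockdown A, B and C, against 19.4, 16.5 and 14.7 CPM in WT A, B and C. The lowest knockdown library was above the highest WT library. edgeR gave a log2 change of 0.62 ± 0.15 (SE) at an adjusted p of 0.00587, and the call was kept under all 17 alternatives, with adjusted p up to 0.0368.

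Itgax encodes CD11c, the alpha chain of complement receptor 4. It had 33.7, 26.8 and 26.9 CPM in knockdown A, B and C, against 42.4, 42.3 and 46.1 CPM in WT A, B and C. All knockdown libraries were below all WT libraries, with knockdown A nearest to them. By edgeR the log2 change was -0.58 ± 0.11 (SE), at an adjusted p of 0.00148, a level 0.668 times that of WT.

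Axl encodes a receptor tyrosine kinase that binds phosphatidylserine on dying cells through its ligand GAS6, and it was nearly silent. Its counts were 0, 1 and 4 in the knockdown libraries, against 12, 15 and 13 in the WT libraries. Over the groups that is 5 counts against 40, a level 9.76 times higher in WT (95% interval 3.85 to 31.7, exact, for counting error only). The call rests on these few counts (edgeR adjusted p = 0.00256), and at 1 CPM in 3 libraries or a mean of 0.5 FPKM (length- and depth-scaled fragments) the gene was not tested.

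Cst7 encodes cystatin F, an inhibitor of lysosomal cysteine proteases. It had 155, 133 and 147 CPM in knockdown A, B and C, against 72.9, 83.1 and 79.1 CPM in WT A, B and C. The groups were far apart relative to their spread. Its log2 change of 0.89 (SE 0.09, edgeR adjusted p = 1.25e-05) was the largest rise among the 10 genes. It ranged from 0.83 to 1.05 over 17 alternatives, which all kept the call.

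Cd9, a tetraspanin that organises integrins and other membrane proteins, rose beside it. It had 961, 797 and 943 CPM in the knockdown libraries, against 451, 555 and 546 CPM in the WT libraries. The lowest knockdown library lay well above the highest WT library. edgeR gave a log2 change of 0.80 ± 0.11 (SE) at an adjusted p of 1.18e-04, and all 17 alternatives kept the call. A pair of genes on the other strand overlap it, with at most 11 counts in a library, or 0.12% of the Cd9 counts.

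Lpl encodes lipoprotein lipase, which releases fatty acids from lipoproteins. It had 262, 418 and 321 CPM in the knockdown libraries, against 275, 210 and 214 CPM in the WT libraries. WT A lay above knockdown A, so the groups overlapped, and Lpl had the widest spread of the members above 1 CPM (23.6% of the mean in the knockdown). By edgeR the log2 change was 0.52 ± 0.15 (SE), at an adjusted p of 0.0184, and the call was lost without WT B (adjusted p = 0.0556) or WT C (0.0802).

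Both secreted ligands of the list were not called. Spp1 encodes osteopontin, a phosphoprotein that binds integrins and CD44. It had 1124, 1358 and 1147 CPM in the knockdown libraries, against 1473, 1316 and 1346 CPM in the WT libraries. Knockdown B lay within the WT range. edgeR gave a log2 change of -0.19 ± 0.10 (SE) at an adjusted p of 0.141, and Spp1 was called lower without knockdown B (adjusted p = 0.0412).

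Csf1 encodes the growth factor that keeps macrophages and microglia alive through CSF1R. It had 150, 147 and 137 CPM in the knockdown libraries, against 154, 152 and 156 CPM in the WT libraries. The knockdown libraries were all below WT, by a small margin. By edgeR the log2 change was -0.09 ± 0.07 (SE), at an adjusted p of 0.338, and it was 0.07 with library totals, where the median of all genes shifts by 0.159.

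**Figure D2:**
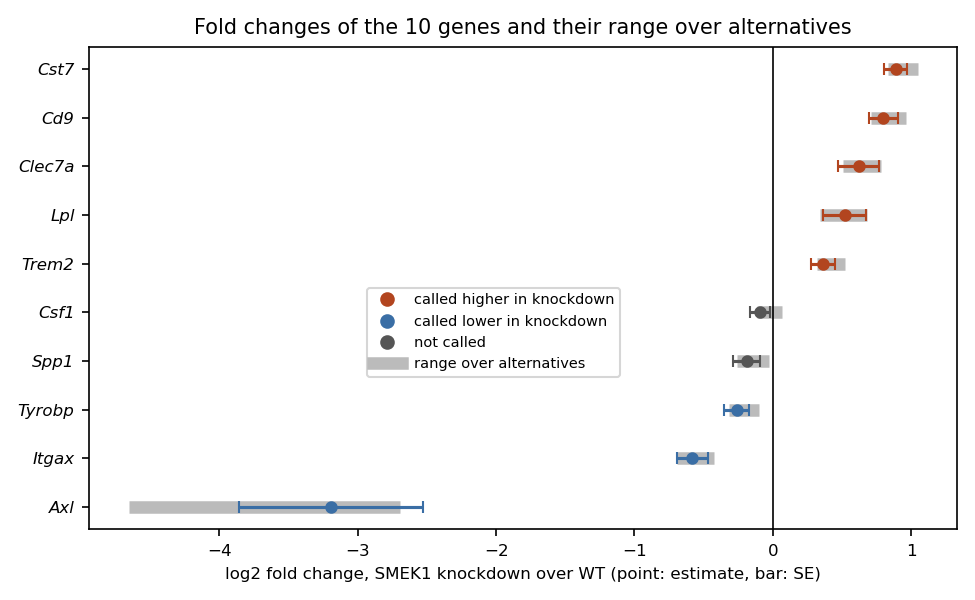
Log2 fold change of SMEK1 knockdown over WT (x axis) for the 10 genes, ordered by size, with points for edgeR estimates, bars for SE and grey bands for the range over the alternatives. Cst7, Cd9, Clec7a, Lpl and Trem2 lie above 0 under every alternative run and Itgax, Axl, Tyrobp and Spp1 below it, while the band of Csf1 spans 0.

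Per length, the 10 genes spanned a wide range of levels. In deposited FPKM, Tyrobp stood highest with 1273 ± 101 in the knockdown and 1534 ± 117 in WT (SD, n = 3 each), place 42 among all 12269 tested genes by mean level. Spp1 followed with 726 ± 66.1 in the knockdown and 834 ± 52.1 in WT, and Cd9 with 437 ± 49.9 in the knockdown and 252 ± 27.6 in WT. Trem2 had 194 ± 12.9 FPKM in the knockdown and 152 ± 11.2 in WT, and Cst7 146 ± 13.3 in the knockdown and 79.2 ± 5.05 in WT. Csf1 had 27.1 ± 1.41 FPKM in the knockdown and 29.1 ± 0.335 in WT, and Lpl 31.4 ± 6.92 in the knockdown and 22.2 ± 3.50 in WT, so in the knockdown this pair did not differ beyond the spread of Lpl. Clec7a had 9.70 ± 1.40 FPKM in the knockdown and 6.36 ± 0.913 in WT, and Itgax 6.01 ± 0.894 in the knockdown and 9.05 ± 0.439 in WT, which put Clec7a above Itgax in the knockdown and Itgax above Clec7a in WT. Axl was last, with 0.0147 ± 0.0186 FPKM in the knockdown and 0.152 ± 0.0243 in WT. These orders depend on the length used. The deposited lengths equal the union of all annotated exons in GENCODE M21 for each of the 10 genes, which is 4946 bases for Trem2, whose longest coding transcript has 1088. Divided by the longest coding transcript, Trem2 reached 891 CPM per kilobase in the knockdown and 693 in WT, and moved from place 4 to place 3 of the 10 by mean level, ahead of Cd9. Together the 10 genes took 0.470% to 0.504% of all counts in the knockdown libraries and 0.390% to 0.413% in the WT libraries.

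Within the groups, the members fell into opposite library orders. Lpl, Clec7a and Spp1 were highest in knockdown B and in WT A, while Trem2, Tyrobp, Cst7 and Cd9 were lowest in knockdown B. Cst7, Tyrobp and Cd9 were also lowest in WT A, and Trem2 was lowest in WT C. The same libraries stood apart in the level of long against short messages, sorted by deposited gene length. By that length Lpl has 10478 bases, but Clec7a has 2638 and Spp1 1648, which puts Spp1 among the short ones. Of the genes with the other order Tyrobp has 667 bases, Cst7 986, Cd9 2044 and Trem2 4946. Relative to the group mean, protein-coding genes of at least 8000 bases stood 0.22 higher in log2 level than those under 2000 bases in knockdown B and 0.18 higher in WT A. The difference was -0.16 in knockdown A, -0.06 in knockdown C, -0.18 in WT B and -0.003 in WT C. With this difference as a covariate, chosen after the data were seen, the log2 change of Lpl was 0.49 and that of Trem2 0.37, and Spp1 was called lower (-0.20, edgeR adjusted p = 0.00673). The covariate is measured around each group's own mean, so by its making it could hardly move a difference between the groups. It acts on the spread within them. The part of message length in the group differences was therefore not tested, by this fit or otherwise.

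**Figure D3:**
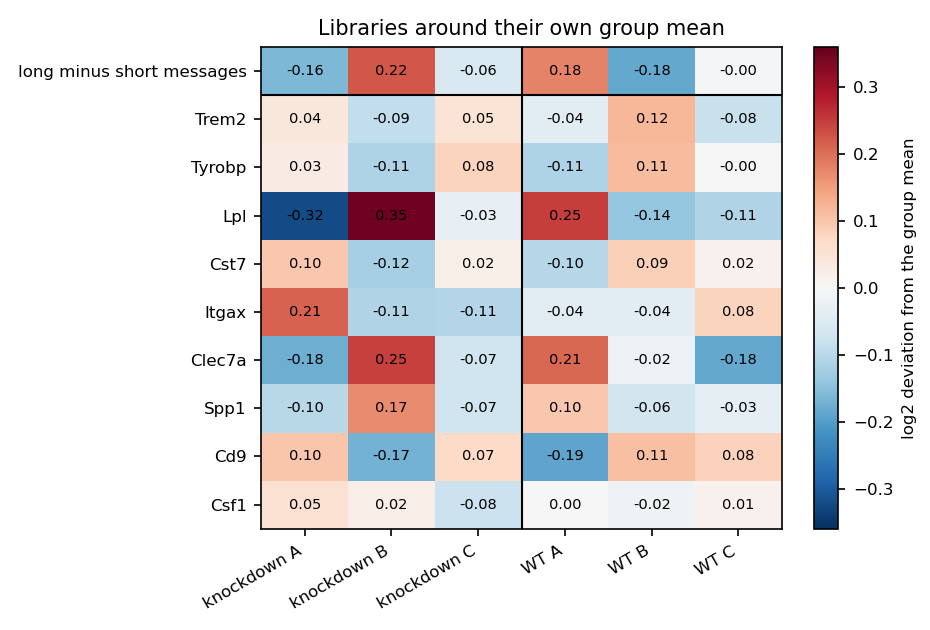
Log2 deviation of each library from the mean of its own group (colour and printed value) for long against short messages (top line) and for 9 of the 10 genes, with knockdown libraries left of WT libraries. Axl is left out for its low counts. Lpl, Clec7a and Spp1 share their sign with the top line in knockdown A, B and WT A, B, and Trem2, Tyrobp, Cst7 and Cd9 have the opposite sign there.

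Trem2 and its tested neighbours moved in opposite directions. It lies in a cluster of related immunoglobulin-domain receptor genes on chromosome 17, and every other tested gene from Trem1 to Treml1 was lower in the knockdown. Trem1, which encodes an activating receptor that amplifies inflammatory signals, had 11, 19 and 25 counts in the knockdown libraries, against 98, 88 and 79 in the WT libraries, a log2 change of -2.55 (SE 0.27). Trem3, another TYROBP-linked receptor gene of the mouse, had 63, 77 and 82 counts in the knockdown libraries, against 285, 304 and 293 in the WT libraries, a log2 change of -2.28 (SE 0.16). On the far side of Trem2, 13.5 kb from its start, Treml1 had 6, 13 and 9 counts in the knockdown and 30, 34 and 27 in WT, a log2 change of -1.98 (SE 0.35). Treml2 fell by 0.31 on the log2 scale (SE 0.09, edgeR adjusted p = 0.0162). Treml4 and B430306N03Rik, named after their values were seen, had log2 changes of -3.38 (SE 0.33) and -0.73 (SE 0.13). Treml1 and Treml4 had few counts and passed the filter only through their WT libraries. Trem2 was by far the most abundant of the cluster, with 969 ± 51.3 CPM in knockdown cells and 754 ± 56.2 CPM in WT cells (SD, n = 3 each), while Treml2, the next, had 40.3 CPM in the knockdown and 49.8 in WT.

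**Figure D4:**
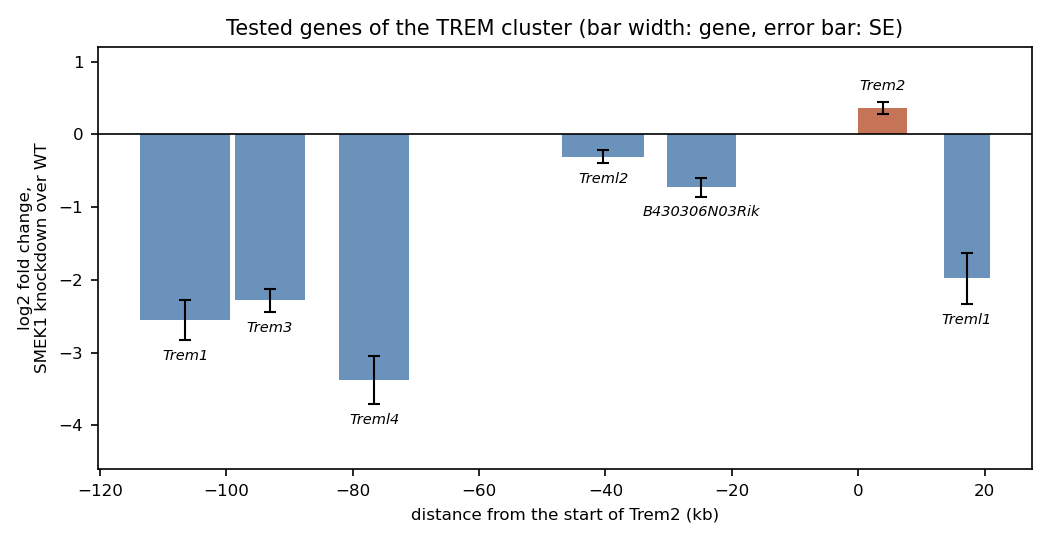
Log2 fold change of SMEK1 knockdown over WT (y axis) for the tested genes of the TREM cluster, drawn at their distance in kb from the start of Trem2 (x axis), with bar widths for gene lengths and error bars for SE. Trem2 at 0.36 is the 1 bar above 0; the others lie between -3.38 and -0.31.

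Of 27 genes of TREM2 signalling, shedding and related receptors 25 were tested, with a median log2 change of -0.31. In the knockdown 16 were lower, 1 higher and 8 not called, whereas 19.6% of all tested genes were lower and 20.5% higher. The counts of the lists that follow are read beside the same shares. The 16 include Trem1, Trem3, Treml1 and Treml2 of the cluster above, and Treml1 passed the filter only through its WT libraries. With library totals 10 were lower and 3 higher, and without any 1 library 11 to 16 were lower. Hcst, which encodes DAP10, the other adaptor of TREM2, fell to 5.91 ± 0.273 CPM in knockdown cells, against 22.5 ± 1.37 CPM in WT cells (SD, n = 3 each; log2 change -1.92, SE 0.14, edgeR adjusted p = 1.09e-06). Plcg2, the phospholipase below TREM2 and SYK, fell to 129 ± 4.95 CPM, against 306 ± 14.7 CPM in WT (log2 change -1.25, SE 0.08, adjusted p = 3.52e-07). Syk itself had a log2 change of -0.51 (SE 0.09, adjusted p = 6.54e-04). Inpp5d, the lipid phosphatase SHIP1, had a log2 change of -0.36 (adjusted p = 0.00266) and Cd33, an inhibitory lectin, -0.65 (adjusted p = 3.46e-05), both named after their values were seen. The 1 higher gene was the adaptor gene Lat2, at 0.39 (adjusted p = 0.0145), also named after it was seen. Adam10 and Adam17, the proteases that shed TREM2, had log2 changes of -0.16 (adjusted p = 0.622) and -0.16 (adjusted p = 0.516).

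Of 11 tested genes of dectin-1 signalling and related lectins, which share Syk and Plcg2 with the TREM2 list, 5 were lower and 6 not called, with a median of -0.315, beside 40.1% called among all tested genes. The 5 were Syk, Plcg2 and Prkcd of the pathway below dectin-1 and the related lectin genes Clec4n and Clec4d, the last named after its values were seen. With library totals, without knockdown B, or with the covariate for long messages, 2 were higher. Clec4n, the lectin dectin-2, fell to 3.33 ± 0.834 CPM, against 11.1 ± 1.64 CPM in WT (SD, n = 3 each; log2 change -1.73, SE 0.22). Prkcd, the kinase between SYK and CARD9, fell by 0.42 on the log2 scale (SE 0.08). Card9, the adaptor itself, had a log2 change of 0.19 (adjusted p = 0.0737), and Fcer1g, the adaptor chain of dectin-2, 0.02 (adjusted p = 0.913).

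Of 7 listed genes around CD11c (its beta chain, other integrin alpha chains and ligands) 5 were tested, and 3 were lower and 2 not called. Itgb2, the beta chain that pairs with CD11c, had 1392, 1356 and 1343 counts in the knockdown and 1868, 1829 and 1799 counts in WT (log2 change -0.71, SE 0.09). The alpha chains Itgam and Itgal, which share that beta chain, had -0.47 (SE 0.10) and -0.39 (SE 0.10). The call of Itgal was lost with library totals (edgeR adjusted p = 0.0936) and without WT C (0.0646). The ligand genes Icam1 and Icam2 had -0.13 (adjusted p = 0.285) and -0.07 (adjusted p = 0.683).

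Among the ligands and sister receptors of AXL, Gas6 and Tyro3 were nearly silent. Gas6, its main ligand, had 0, 0 and 1 counts in the knockdown libraries with none in WT, and Tyro3 had 0, 4 and 1 with none in WT, so both were untested. Pros1, which encodes protein S, the ligand of the sister receptors, had 12, 30 and 23 counts in the knockdown libraries, against 3, 3 and 0 in the WT libraries, a log2 change of 3.07 (SE 0.63, edgeR adjusted p = 0.00241), and it passed the filter only through the knockdown libraries. Mertk, the efferocytosis receptor, had 5.74 ± 1.18 CPM in knockdown cells and 9.43 ± 2.82 CPM in WT cells (SD, n = 3 each). Its groups overlapped, and its call (log2 change -0.72, SE 0.24, edgeR adjusted p = 0.0309) was lost without knockdown A (0.109), knockdown C (0.0807), WT A (0.133) or WT C (0.0704). Library totals in place of TMM lost the Mertk call too (edgeR adjusted p = 0.122).

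Around Csf1, the ligand itself was not called, while its receptor was lower and the other ligand of that receptor higher. Csf1r had 5021, 5839 and 5698 counts in the knockdown and 7948, 7053 and 7523 counts in WT, a log2 change of -0.73 (SE 0.07, edgeR adjusted p = 1.50e-05). Il34, which encodes interleukin-34, had 278, 285 and 302 counts in the knockdown libraries, against 46, 38 and 32 in the WT libraries. It rose 6.13-fold (log2 change 2.62, SE 0.18, adjusted p = 9.86e-07), with the groups far apart.

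Osteopontin receptors moved in both directions. Of 8 listed 7 were tested, 3 were higher and 1 lower, with a median of 0.40. Itga5, the alpha chain of the fibronectin receptor, rose by 0.64 (SE 0.08), Itgb5 by 0.46 (SE 0.08) and the hyaluronan receptor gene Cd44 by 0.40 (SE 0.08) on the log2 scale. Itga4 fell to 15.7 ± 3.82 CPM in knockdown cells, against 33.2 ± 8.68 CPM in WT cells (SD, n = 3 each; log2 change -1.08, SE 0.20).

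Lysosomal cysteine proteases listed as targets of cystatin F moved in both directions. All 7 were tested, and 4 were higher and 1 lower, with a median of 0.28. The 4 include Lgmn, which encodes legumain and is not a cathepsin gene (log2 change 0.29, edgeR adjusted p = 0.0382). It was named after its values were seen. The number higher ranged from 1 (without knockdown C or WT C) to 5 when a library was left out, and it was 2 without knockdown A or WT A. With library totals in place of TMM, 6 were higher and 1 lower. Ctsh rose to 152 ± 7.86 CPM in knockdown cells, against 46.0 ± 1.60 CPM in WT cells (SD, n = 3 each; log2 change 1.73, SE 0.08). Ctsc, the activator of granule serine proteases, rose by 0.38 (SE 0.11), a call lost without knockdown C (edgeR adjusted p = 0.0714) or WT C (0.0685). Ctsl rose by 0.28 (SE 0.10, edgeR adjusted p = 0.0353), a call lost without knockdown A (0.0506), knockdown C (0.0926), WT A (0.108) or WT C (0.0958). Ctsf fell to 59.5 ± 3.61 CPM, against 159 ± 3.95 CPM in WT (log2 change -1.41, SE 0.08).

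Tetraspanins and CD9 partners went both ways. Of 10 listed 9 were tested, 3 were higher and 4 lower, with a median of -0.19; with library totals, or without knockdown B, knockdown C, WT B or WT C, 2 were lower. Cd151, a laminin-binding integrin partner, rose 2.02-fold and Cd81, a close relative of CD9, 1.34-fold. Tspan4 fell to 125 ± 7.77 CPM in knockdown cells, against 261 ± 5.75 CPM in WT cells (SD, n = 3 each; log2 change -1.06, SE 0.08), and Cd82 fell by 0.39 on the log2 scale (SE 0.08). For lipoprotein lipase 4 of 13 listed genes of maturation, anchoring and inhibition were tested, and 1 was lower and 3 not called. The lower one was Sdc1, which encodes syndecan-1, a heparan sulfate proteoglycan (log2 change -0.85, SE 0.08). Lmf1, the maturation factor of the lipase, had -0.04 (edgeR adjusted p = 0.766), and Gpihbp1 and Angptl4 were at 0 in every library.

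Other genes of the DAM description also moved in both directions. Of the 10 listed genes of the early, TREM2-independent step, 2 were higher and 4 lower, with a median of -0.17, and of -0.0116 with library totals. Gnas rose by 0.76 (SE 0.09) and Timp2, a metalloproteinase inhibitor, by 0.47 (SE 0.09) on the log2 scale. The lysozyme gene Lyz2 fell to 1239 ± 202 CPM in knockdown cells, against 2731 ± 382 CPM in WT cells (SD, n = 3 each), and B2m, the MHC class I light chain, fell by 0.42 on the log2 scale (SE 0.09). Apoe, which encodes the apolipoprotein that TREM2 can bind, had a log2 change of -0.21 (SE 0.09, edgeR adjusted p = 0.0831). Of the 26 listed genes of the later step 23 were tested, 7 were higher and 6 lower, with a median of 0.01; with library totals 11 were higher and 3 lower. Plin2, a lipid droplet coat protein, rose to 591 ± 56.1 CPM in knockdown cells, against 253 ± 32.3 CPM in WT cells (SD, n = 3 each; log2 change 1.22, SE 0.11). Igf1, a growth factor, rose by 1.15 on the log2 scale (SE 0.10). Lgals3bp fell to 42.3 ± 5.61 CPM, against 241 ± 8.62 CPM in WT (log2 change -2.51, SE 0.10), and Cd52 by 1.37 on the log2 scale (SE 0.11). Gpnmb, the most abundant of this list in CPM, had 7464 CPM in the knockdown, against 7309 in WT, and a log2 change of 0.03 (adjusted p = 0.829).

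Homeostatic genes, the opposite pole of the programme, moved in both directions. Of 19 listed 13 were tested, 5 were higher and 5 lower, with a median of -0.12, and 0.04 with library totals. The median was 0.27 without knockdown A, 0.265 without WT A, 0.23 without WT B and 0.22 without WT C, where 14 were tested. Without knockdown A or WT A, 6 were higher and 4 lower. Fcrls, called higher, had 23, 32 and 28 counts in the knockdown libraries, against 6, 10 and 6 in WT, and passed the filter only through the knockdown. P2ry13, called lower, had 11, 9 and 9 counts in the knockdown libraries, against 24, 36 and 27 in WT, and passed only through WT. Both were named after their values were seen. Tmem119, a microglial surface marker, had 405, 406 and 416 counts in the knockdown libraries, against 185, 170 and 150 in the WT libraries, a log2 change of 1.00 (SE 0.14, edgeR adjusted p = 1.58e-04). Entpd1, the ectonucleotidase CD39, had -0.88 (SE 0.11), and Csf1r stood on this list too. Cx3cr1 and P2ry12 had too few counts to be tested.

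Among 21 transcription factors proposed for the DAM state 20 were tested, 8 were higher and 5 lower, with a median of 0.17; with library totals 11 were higher and 4 lower. Tfec, a factor of the MiT/TFE family, had 164, 198 and 214 counts in the knockdown libraries, against 19, 11 and 9 in the WT libraries, a rise of 12.03-fold (log2 change 3.59, SE 0.26, edgeR adjusted p = 1.09e-06). Tfec passed the filter on low counts only through the knockdown libraries, and its fold change rests on a low WT level. Atf3, a stress-induced factor of the ATF family, rose 2.28-fold and Cebpa, a myeloid lineage factor, 1.66-fold. Junb, a subunit of AP-1, fell to 164 ± 17.8 CPM in knockdown cells, against 308 ± 10.2 CPM in WT cells (SD, n = 3 each; log2 change -0.91, SE 0.09). Spi1, which encodes PU.1, had a log2 change of -0.30 (SE 0.08, adjusted p = 0.0113).

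**Figure D5:**
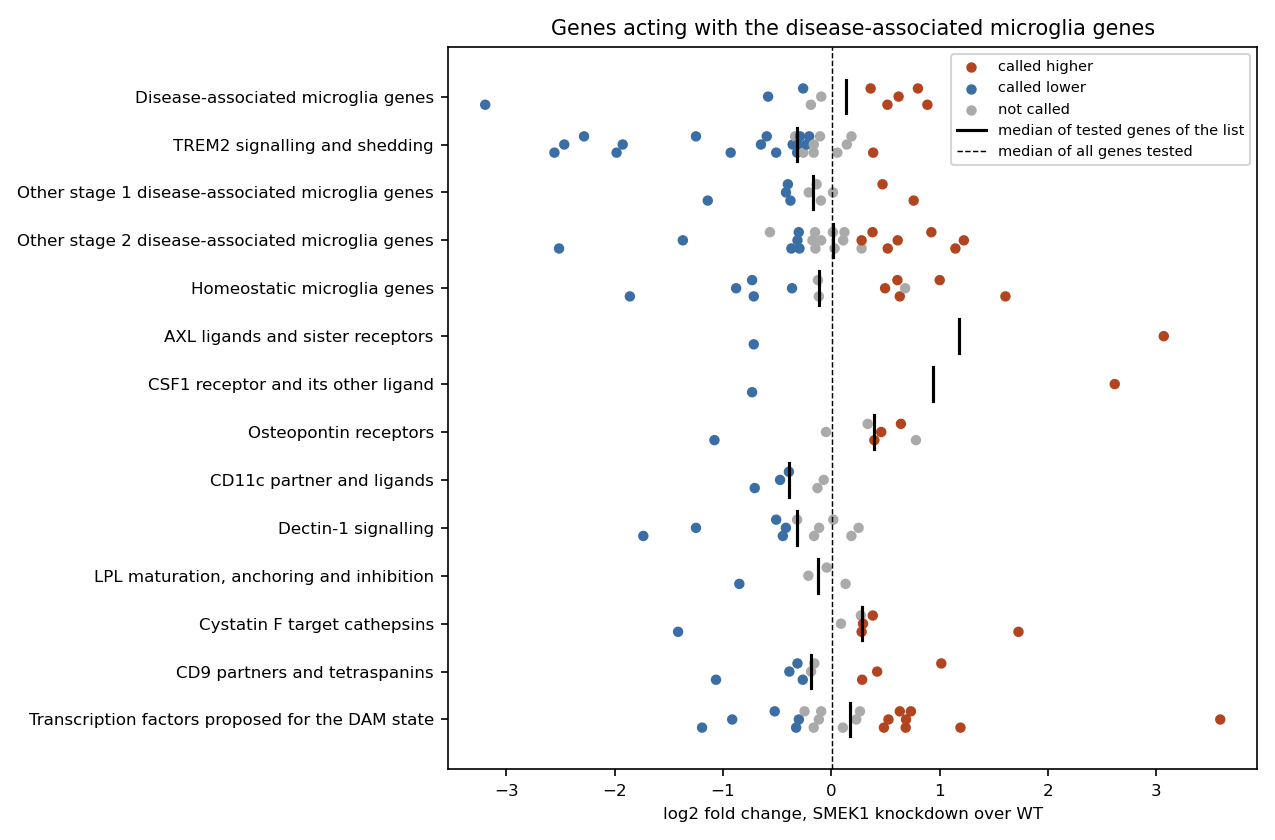
Log2 fold change of SMEK1 knockdown over WT (x axis) for the tested genes of each list, coloured by call, with a bar at the list's median and a dashed line at the median of all tested genes (0.01). The 10 genes at the top spread to both sides, and the TREM2 list below them has 16 genes called lower and 1 higher.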

How the data were processed

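RNA was sequenced from 3 SMEK1 knockdown and 3 WT libraries of BV2 cells. Libraries were made with a SMARTER kit, per the labels' protocols, and the build was GRCm38 (mm10), per the submitters' processing notes. For the aligner, the counter, strand use and the annotation release, the sources used here give nothing. The authors deposited whole-number counts per gene and FPKM; a second table that repeats the FPKM with group means was not used. The quasi-likelihood test of edgeR 4.0.16 (R 4.3.3; filterByExpr, TMM, glmQLFit, glmQLFTest, no covariate) was run on the counts, and every adjusted p is from it, over the whole table, where no other tool is given. CPM are TMM-scaled. Log2 changes run knockdown over WT, and their SE is the absolute change over the square root of F. The scripts were tested on simulated data. Alternatives used DESeq2 1.42.0, limma 3.58.1 (voom; log2 FPKM with pseudocounts of 1 and 0.1), other scalings, filters and thresholds, a replicate block, and each library left out. Intervals cover counting error only.

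The members and lists were chosen with earlier results of these data known. Named are the 10 members, Ppp4r3a, up to 4 called genes per list by smallest adjusted p, all genes of lists under 5, and genes given as named after they were seen or as examples that were not called. Gene correlations over the 6 libraries had been planned but are not reported, because the libraries fall into 2 groups. Without strand, reads of overlapping genes cannot be told apart.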

Additional observations from a re-analysis of the deposited data

How the results depend on the processing

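All 17 alternatives kept the direction and call of Cst7, Cd9, Clec7a and Itgax, and the 14 that tested Axl kept its call; of the 10 genes Csf1 alone changed sign, uncalled in each. The 5 genes called higher were 3 with the replicate block, where Trem2 (edgeR adjusted p = 0.0504) and Lpl (0.0705) were lost, and 3 to 5 without any 1 library. The 3 called lower were 1 with limma on log2(FPKM + 1) and 1 on log2(FPKM + 0.1), where Tyrobp was lost (0.073 and 0.0741) and Axl was filtered out. Libraries of the same replicate letter did not deviate together: deviations from the group means correlated at -0.60, -0.65 and -0.03 over 8716 genes for A, B and C. The difference between long and short messages had opposite signs under A (-0.16 in knockdown, 0.18 in WT) and under B (0.22 in knockdown, -0.18 in WT). A batch shared by letter was not tested apart from that difference, so these correlations do not settle whether the letters pair the libraries. Over all genes the 2515 called higher were 3893 with library totals and 1582 at an adjusted p under 0.01, and the 2403 called lower were 1568 and 1599. With library totals 71.3% of calls were higher. With the replicate block the TREM2 list had 10 genes lower in place of 16 and the cysteine proteases 1 higher in place of 4. The covariate for long messages called 6777 genes in place of 4918. Over the 53 genes named by the rule that had a value, 854 values under alternatives kept their side of the threshold. Direction was checked only for called genes, which kept it, so the sign changes of Csf1 are within the 854. A further 39 values lost the call, 2 gained it (Spp1) and none reversed a call. Genes named after they were seen or as uncalled examples were not counted. Depth limits Axl, Gas6, Tyro3, Pros1, Treml1, Treml4, P2ry13 and Fcrls, which rest on a few counts, and the WT level of Tfec. The causes of lost calls were not tested.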
